A study of Mus musculus with 8 samples.

Results

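Matrix glycoproteins and proteoglycans were followed in immortalized mouse pancreatic stellate cells (PSCs), the fibroblast-like cells of the pancreas. A list of 39 genes was taken by symbol, and 36 of them were found among the 12160 genes of the count table; Aspn, Ogn and Fbln5 were not among them. The PSCs were embedded in Matrigel, kept in growth medium (DMEM with 10% FBS) for 4 days and treated for the next 4 days. Of the 8 cultures (domes) sequenced, 3 received medium conditioned by KPC organoids in which Brca2 was silenced by lentiviral shRNA (shBrca2-CM), 3 received medium of KPC organoids carrying a non-targeting shRNA (shControl-CM), and 2 received control medium. KPC organoids are 3D cultures of mouse pancreatic cancer cells, whose medium holds what the cancer cells release. The Brca2 knockdown is in the organoids, which were not sequenced here. The control is recorded as the PSCs' own conditioned medium in the sample records and in the study's methods, but as DMEM in the sample titles and as growth medium (DMEM) in the study's results. All domes are of one PSC line, so p-values measure the spread between domes and not between lines or animals. Separate organoid transductions or batches of conditioned medium are not recorded for the domes, so their spread cannot be taken as covered.

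The genes fall into 4 role groups. Small leucine-rich proteoglycans (SLRPs) sit on collagen fibrils, set their width and spacing, and bind growth factors such as TGF-β. Elastic fibre and microfibril proteins build the stretchable scaffold of the matrix. Adhesive and matricellular proteins link cells to the matrix or change how cells respond to it, and laminins, nidogens and heparan sulfate proteoglycans form the basement membrane. Fibroblasts, stellate cells among them, are a main source of such proteins in the fibrous stroma of pancreatic tumors.

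The shBrca2-CM libraries held 655996 to 1095534 counts, the shControl-CM libraries 1093609 to 1624392 and the control libraries 4623846 and 5476988, so genes of low level were measured least precisely with shBrca2-CM. Of 12 stellate and fibroblast markers, 11 were in the table (Gfap was not), and their summed level ranged over 3847 to 4308 CPM (counts scaled to an equal total per library) with shBrca2-CM, 3250.4 to 3607 CPM with shControl-CM and 6762 to 7701 CPM with control medium. Vim, the intermediate filament of mesenchymal cells, had the largest part in this gap, at 436 to 749, 243 to 463 and 3396 to 4115 CPM in the same order, and the other 10 markers summed to 3288 to 3559, 2877 to 3229 and 3365 to 3586 CPM. Against control medium, by the calling rule given below, 5 of the 11 were called as lower with both organoid media (Vim, Col1a1, Col1a2, Col3a1 and Acta2). Called as higher were 2 with shControl-CM and 4 with shBrca2-CM, Thy1 and Pdpn with both. Of all genes, 18.9% were lower and 18.2% higher with shControl-CM, and 19.2% and 18.6% with shBrca2-CM. The 2 of 11 higher with shControl-CM thus lay near the share of all genes. Among these markers Acta2, the actin of myofibroblasts, had 3 or fewer counts in every library with either organoid medium. Epithelial markers were represented by 3 of 12 genes (Krt18, Krt19 and Muc1), with sums of 59.3 to 94.1, 57.7 to 70.6 and 37.0 to 41.7 CPM in the same order, and Epcam, Krt8 and Cdh1 were not in the table. Immune markers were represented by 3 of 10 genes (13.0 to 26.6, 23.7 to 36.0 and 9.46 to 11.5 CPM; Ptprc not in the table) and endothelial markers by 3 of 8 (at most 6.78 CPM; Pecam1 and Cdh5 not in the table). Between the organoid media, 2 of the 11 stellate markers were called as higher with shBrca2-CM (Pdgfra and S100a4) and 1 as lower (Pdpn). Of all genes, 3.13% were called. Of the epithelial markers Krt19 was called as higher, at 5.79, 16.2 and 13.3 CPM against 2.56, 3.87 and 2.04 CPM. Krt19 was highest with control medium, at 24.3 and 25.4 CPM, and was called as lower than that with both organoid media. Krt18 and Muc1 were called as higher than control with both. The part of these marker differences in the results was not tested, and fewer cells of a type and less RNA per cell cannot be told apart in bulk RNA.

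The 36 genes together took 3.17% to 3.28% of all counts in the shBrca2-CM libraries, 2.11% to 2.86% in the shControl-CM libraries and 2.36% and 2.52% in the control libraries. Most of these counts came from 3 genes, the SLRP biglycan (Bgn), matrix Gla protein (Mgp, an inhibitor of calcification) and osteopontin (Spp1, a secreted phosphoprotein that binds integrins), which made up 2.34% to 2.399%, 1.31% to 2.02% and 1.39% to 1.59% of counts in these groups. The remaining 33 genes took 0.834% to 0.884%, 0.800% to 0.885% and 0.926% to 0.967% in the same order, ranges that overlap between the organoid media. Levels are given as CPM scaled by TMM over the 8 libraries; since reads were taken from the 3′ ends of mRNA, CPM do not grow with transcript length. Spp1 had the highest mean of the 36 genes with either organoid medium, and Bgn had it with control medium. The levels of Bgn were 5689.5, 5515 and 5338 CPM with shBrca2-CM, 5565, 5901 and 5562 CPM with shControl-CM, and 7122 and 6983 CPM with control medium. All 6 organoid medium values of Bgn lay below both control values, but the log2 fold changes of -0.32 (adjusted p = 0.127) with shControl-CM and -0.35 (adjusted p = 0.0163) with shBrca2-CM were under the size required for a call.

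Between the organoid media, which differ in the Brca2 silencing of the organoids, 10 of the 36 matrix genes were higher with shBrca2-CM and 2 were lower. The 10 were the SLRPs Fmod and Prelp, the fibulin Efemp1, the adhesive and matricellular genes Postn, Tgfbi, Thbs1, Thbs2 and Mgp, and the basement membrane genes Nid2 and Agrn, with log2 fold changes of 0.60 to 3.45. Decorin (Dcn) and lumican (Lum) were lower. A gene was called at an adjusted p under 0.1 by edgeR's quasi-likelihood test, a log2 fold change over 0.5 in size and a mean normalized count over 5. By this rule 3.13% of the 11035 genes tested were called, 1.58% as higher and 1.55% as lower. The median log2 fold change was 0.29 over the matrix genes and 0.03 over all genes. In 21 of 36 genes (58.3%) the 3 values of one medium lay wholly above the 3 of the other, as in 19.8% of all genes tested, and the 12 called genes were among those 21.

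The 24 matrix genes that were not called had log2 fold changes of -0.43 to 1.44. Fewer of the 12 were called in 4 of the 6 fits with 1 dome left out, 4 without shBrca2-CM dome 2 or without dome 3, 7 without shBrca2-CM dome 1 and 5 without shControl-CM dome 2, and the genes called over the whole table fell with them, from 345 to 128, 160, 175 and 169. Without shControl-CM dome 1 all 12 were called, with Sparcl1 and Ecm1 besides, and 976 genes over the whole table; without shControl-CM dome 3 all 12 were called, with Tnc besides, and 445 genes. All 12 kept their direction in the 6 fits, the log2 fold change of Agrn at 0.57 to 0.63 and that of Postn at 0.91 to 1.57. Dcn, Prelp, Efemp1 and Mgp were called in all 6 fits that left out 1 dome, while the other 8 genes were called in 2 or 3 of the 6, with adjusted p-values reaching 0.174 (Agrn) to 0.448 (Postn) over the 15 alternatives run.

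**Figure D1:**
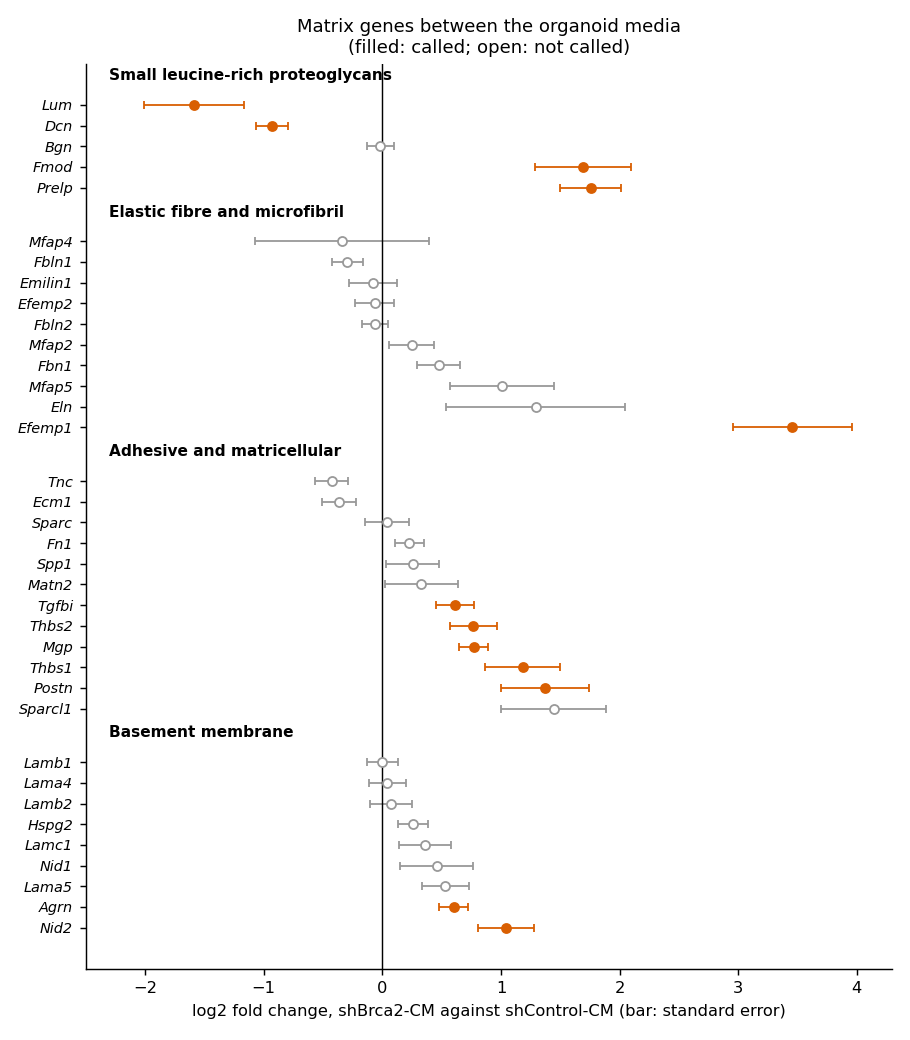
Log2 fold change (x axis) of each of the 36 matrix genes with shBrca2-CM against shControl-CM, grouped by role, with bars of 1 standard error. Filled points are the 12 called genes and open points the 24 not called; 10 filled points lie above 0, and Lum (-1.59) and Dcn (-0.93) lie below it.

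Among the 5 SLRPs measured, 2 rose and 2 fell, and Bgn was not called, with a log2 fold change of -0.02 (SE 0.110, adjusted p = 0.975). Decorin, which binds collagen fibrils and TGF-β, was measured at 1222, 909.7 and 1127 CPM with shBrca2-CM, 2257, 2141 and 1922 CPM with shControl-CM, and 105 and 80.0 CPM with control medium. All 3 shBrca2-CM values lay below all 3 shControl-CM values, and both media stood far above control medium. The log2 fold change of Dcn between the organoid media was -0.93 (SE 0.137, adjusted p = 0.00314).

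Lumican, a keratan sulfate SLRP that also coats collagen fibrils, was a low-level gene at 8.68, 7.47 and 4.44 CPM with shBrca2-CM, 28.8, 14.5 and 17.0 CPM with shControl-CM, and 9.38 and 6.66 CPM with control medium. Only the shControl-CM domes lay above the control range. Its log2 fold change between the organoid media was -1.59 (SE 0.419, adjusted p = 0.0849), from 6, 6 and 5 counts against 45, 15 and 25 counts. The call was lost when total counts or DESeq2's likelihood ratio test were used.

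Fibromodulin (Fmod), an SLRP that takes part in the cross-linking of collagen fibrils, was at 10.1, 26.1 and 22.2 CPM with shBrca2-CM and at 5.13, 6.76 and 6.79 CPM with shControl-CM, and it was at 347 and 347 CPM with control medium. The 2 organoid media did not overlap, although shBrca2-CM dome 1 lay nearest to the shControl-CM range. Fmod had a log2 fold change of 1.69 (SE 0.404, adjusted p = 0.0563), a call that DESeq2's likelihood ratio test did not make.

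Prelp, an SLRP that binds collagen and the basement membrane proteoglycan perlecan, was at 50.6, 85.9 and 74.6 CPM with shBrca2-CM, 17.9, 28.0 and 19.0 CPM with shControl-CM, and 60.1 and 70.7 CPM with control medium. The shBrca2-CM values spanned the control values, while the shControl-CM values lay below both. Its log2 fold change between the organoid media was 1.76 (SE 0.255, adjusted p = 0.00287).

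The called SLRPs lie in 2 pairs on the genome. Dcn (10:97479500-97518163, GRCm38.p6) and Lum (10:97565501-97572703) are neighbours, with 47.3 kb and no annotated gene between them, and both were lower with shBrca2-CM. Prelp (1:133910304-133930102) and Fmod (1:134037254-134048280) are 107.2 kb apart, with 2 annotated genes between them that were not in the count table, and both were higher with shBrca2-CM. Against control medium the genes of a pair were called together with shControl-CM, while with shBrca2-CM Dcn and Fmod were called and Lum and Prelp were not.

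Of the 10 elastic fibre and microfibril genes measured, only Efemp1 was called between the organoid media. Efemp1 encodes fibulin-3, an extracellular glycoprotein with EGF-like repeats. It was at 20.3, 24.9 and 15.1 CPM with shBrca2-CM, 0.641, 2.90 and 2.04 CPM with shControl-CM, and 44.3 and 34.8 CPM with control medium. The shControl-CM domes had 1, 3 and 3 counts, at or under the floor of 3 counts per library, a level too low to separate from 0 by counting. The mean of Efemp1 with shBrca2-CM was 6.93 times the highest floor of the shControl-CM libraries (2.90 CPM), a ratio that leaves out the spread between domes. Its fitted log2 fold change was 3.45 (SE 0.502, adjusted p = 0.00287). It was called in all 15 alternatives that could be run, among them every fit without 1 dome.

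Promoter sequences, 250 bases before to 50 after a start site, were found in the RefSeq table of GRCm38.p6 for 23 of the 36 matrix genes and for 7 of the 12 called between the organoid media. They were searched on both strands for AP-1 (TGANTCA), TEAD (GGAATG) and heat shock (GAANNTTC) motifs and for TATAAA, which were present in 7.81%, 14.7%, 7.86% and 13.6% of all 32851 promoters. AP-1 letters were found for Ecm1 and Efemp1, TEAD letters for Mfap2 and Nid1, TATAAA for Ecm1, Postn, Spp1, Thbs2 and Tnc, and heat shock letters for none of the 23. The window is shown for Efemp1 (chr11:28853031-28853204, plus strand), the gene of the 36 with the largest change between the organoid media, and for Postn (chr3:54361007-54361106, plus strand), a called gene with TATAAA close before a start site. A gene can have several start sites (31 promoters for the 23 genes), and the window of Postn lies before the downstream one of 2 in the table. The start site used for Efemp1 lies inside the annotated gene, which begins at chr11:28853154. Both windows run 5′ to 3′ to the base before that start site, with the match to the AP-1 pattern 154 bases and the TATAAA match 26 bases before the start in capitals. The AP-1 pattern searched leaves its middle base open, and in Efemp1 that base is A, so the match is to this loose pattern only. A match describes the letters and not a bound site.
Efemp1: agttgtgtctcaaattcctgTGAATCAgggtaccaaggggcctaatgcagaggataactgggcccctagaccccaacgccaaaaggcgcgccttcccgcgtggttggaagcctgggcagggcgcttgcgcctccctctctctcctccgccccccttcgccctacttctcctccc
Postn: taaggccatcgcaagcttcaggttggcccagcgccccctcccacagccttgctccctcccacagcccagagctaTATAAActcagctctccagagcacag

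Elastin (Eln), the core of the elastic fibre, was at the floor with shControl-CM (2, 3 and 1 counts) and had 1, 4 and 5 counts with shBrca2-CM, so that no difference between the organoid media was detectable at this depth. Fibrillin-1 (Fbn1), the backbone of microfibrils, was at 53.5, 59.7 and 55.0 CPM with shBrca2-CM and 41.0, 40.6 and 41.4 CPM with shControl-CM. These values did not overlap, and the log2 fold change of 0.48 (adjusted p = 0.253) missed the threshold. Mfap5, a microfibril-associated glycoprotein, likewise did not overlap and was not called, at 1.01 (adjusted p = 0.343). Fbln1, Fbln2, Efemp2, Emilin1, Mfap2 and Mfap4 had log2 fold changes of -0.34 to 0.25, and none of them was called. Of these, Fbln1 did not overlap either and was lower with shBrca2-CM, at -0.30 (adjusted p = 0.346).

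The adhesive and matricellular group held 5 of the 10 increases and no decrease among its 12 genes. Mgp was at 7447, 8829 and 7881 CPM with shBrca2-CM, 5298, 4718 and 4402 CPM with shControl-CM, and 5959 and 5228 CPM with control medium. Every shBrca2-CM dome lay above every other library. Its log2 fold change of 0.77 (SE 0.124, adjusted p = 0.00577) was among the smaller ones called, but on the CPM scale it was the largest rise of the 36 genes, from 4806 ± 454 to 8052 ± 707 (SD, n = 3 each).

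Periostin (Postn), a matricellular protein of activated fibroblasts, was at 20.3, 46.0 and 22.2 CPM with shBrca2-CM, 14.1, 10.6 and 9.51 CPM with shControl-CM, and 270.1 and 233 CPM with control medium. ShBrca2-CM dome 2 had the highest value of the organoid media. The log2 fold change was 1.37 (SE 0.370, adjusted p = 0.0951), and the call was lost with DESeq2's likelihood ratio test and in 4 of 6 fits without 1 dome.

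The thrombospondins Thbs1, which activates latent TGF-β, and Thbs2, an inhibitor of vessel growth, were both higher with shBrca2-CM. Thbs1 was at 91.1, 212 and 128 CPM with shBrca2-CM, 89.1, 63.8 and 39.4 CPM with shControl-CM, and 214 and 239 CPM with control medium. The lowest shBrca2-CM dome lay just above the highest shControl-CM dome. Thbs1 had a log2 fold change of 1.18 (SE 0.315, adjusted p = 0.0874). Thbs2 was at 68.0, 103 and 81.7 CPM, 52.5, 40.6 and 57.0 CPM and 94.5 and 94.8 CPM in the same order, with a log2 fold change of 0.77 (SE 0.201, adjusted p = 0.083) between the organoid media, a call that DESeq2's likelihood ratio test did not make (adjusted p = 0.156). The shBrca2-CM values of Thbs2 spanned the control values, and the shControl-CM values lay below them.

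Tgfbi, an adhesion protein that binds integrins and is induced by TGF-β, was at 221, 222 and 190.0 CPM with shBrca2-CM, 127, 169 and 126 CPM with shControl-CM, and 248 and 246 CPM with control medium. The groups stood in the order shControl-CM, shBrca2-CM, control medium with no overlap. Its log2 fold change between the organoid media was 0.61 (SE 0.159, adjusted p = 0.0794).

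The other 7 genes of the group were not called between the organoid media. Tenascin-C (Tnc), a matricellular protein of wounds and tumors, was at 242, 243 and 262 CPM with shBrca2-CM and 396, 326 and 300.2 CPM with shControl-CM, which did not overlap, with a log2 fold change of -0.43 (adjusted p = 0.178). Sparcl1, a relative of Sparc, had 13, 7 and 18 counts against 12, 4 and 6 counts and a log2 fold change of 1.44 (adjusted p = 0.151). Fibronectin (Fn1), the main adhesive glycoprotein of the interstitial matrix, had a log2 fold change of 0.23 (adjusted p = 0.466) from 1097 ± 94.1 CPM against 955 ± 73.7 CPM (SD, n = 3 each). Sparc, Spp1, Matn2 and Ecm1 had log2 fold changes of -0.37 to 0.33. Ecm1 was lower with shBrca2-CM without overlap, at -0.37 (adjusted p = 0.273). For Spp1 the shControl-CM values were 9758, 8996 and 4529 CPM, so that dome 3 alone lay far below the 8754 to 9529 CPM of shBrca2-CM.

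In the basement membrane group, 2 of 9 genes rose with shBrca2-CM and none fell. Nidogen-2 (Nid2), which links laminin to type IV collagen, was at 46.3, 87.1 and 70.1 CPM with shBrca2-CM, 31.4, 38.7 and 31.9 CPM with shControl-CM, and 152 and 141 CPM with control medium. Both organoid media lay below control medium, shControl-CM further than shBrca2-CM. The log2 fold change between the organoid media was 1.04 (SE 0.235, adjusted p = 0.0424), and the call was lost when libraries were thinned to the smallest total (adjusted p = 0.119).

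Agrin (Agrn), a heparan sulfate proteoglycan of basement membranes, was at 246, 241 and 264 CPM with shBrca2-CM, 166, 166 and 173 CPM with shControl-CM, and 95.8 and 109 CPM with control medium. The groups were separate and tight, in the order control medium, shControl-CM, shBrca2-CM. Agrn had a log2 fold change of 0.60 (SE 0.124, adjusted p = 0.0262). The laminin chains Lama4, Lama5, Lamb1, Lamb2 and Lamc1, with Nid1 and perlecan (Hspg2), were not called and had log2 fold changes of 0.00 (Lamb1) to 0.53 (Lama5).

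**Figure D2:**
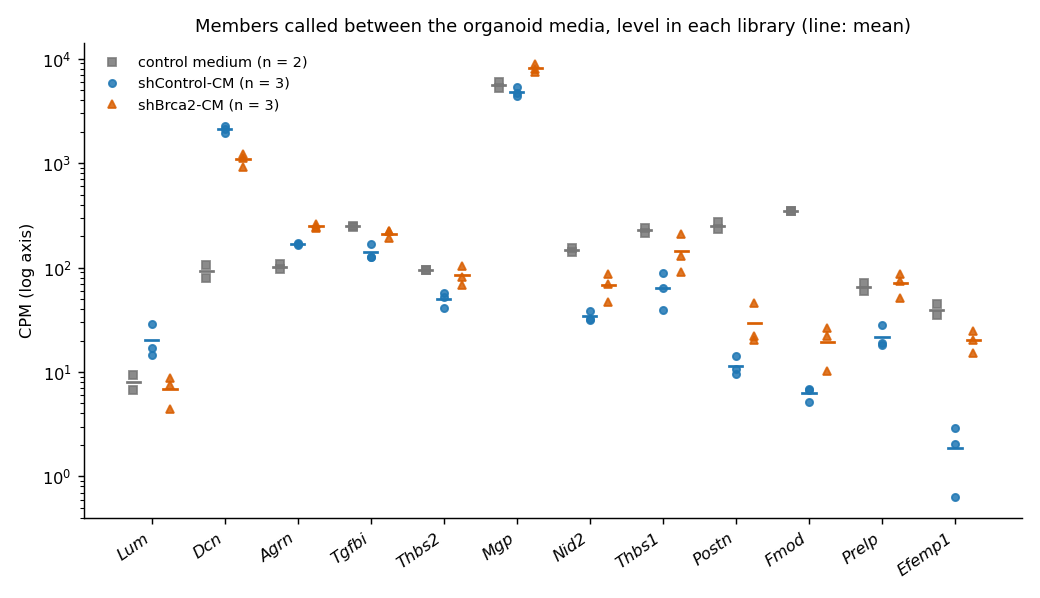
Level in CPM (log axis) of the 12 matrix genes called between the organoid media, with 1 point per library for control medium (2 squares), shControl-CM (3 circles) and shBrca2-CM (3 triangles) and a short line at each group's mean. In the 10 genes that rose, every triangle lies above every circle; in Lum and Dcn every triangle lies below every circle.

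The other comparisons set matrix expression with each organoid medium against control medium. By the study's methods, organoid medium was collected with less serum than the growth medium holds. Serum, conditioning and products of the cancer cells cannot be told apart in these comparisons. With shControl-CM, 25 of 36 genes were called, 8 higher and 17 lower, beside 37.1% of the 12086 genes tested; 18.2% of genes were higher and 18.9% lower. The median log2 fold change was -0.53 over the matrix genes and -0.10 over all genes. With shBrca2-CM, 21 genes were called, 9 higher and 12 lower, beside 37.8% of the 12049 genes tested; 18.6% were higher and 19.2% lower. Here the medians were -0.25 and -0.05, and that of the matrix genes was -0.11 without shBrca2-CM dome 3. These comparisons share the 2 control libraries, so their values are set side by side and not counted as independent. Groups did not overlap in 29 of 36 matrix genes with shControl-CM, beside 59.9% of all genes, and in 28 of 36 with shBrca2-CM, beside 57.4% of all genes. The 2 control libraries had the largest totals, and thinning all libraries to the smallest total left 24 and 21 matrix genes called, while the calls over all genes went from 4488 to 2928 and from 4555 to 3288. Calls lost when 1 library was left out were those of Mgp with shBrca2-CM, of Lum and Nid1 with shControl-CM, lost when either control dome was left out, of Mfap5 with shControl-CM, lost without control dome 2 (adjusted p = 0.19), and of Thbs1 with shBrca2-CM, lost without its dome 1 (log2 fold change -0.44), and Fbn1 with shBrca2-CM, lost without control dome 2 (log2 fold change -0.38).

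**Figure D3:**
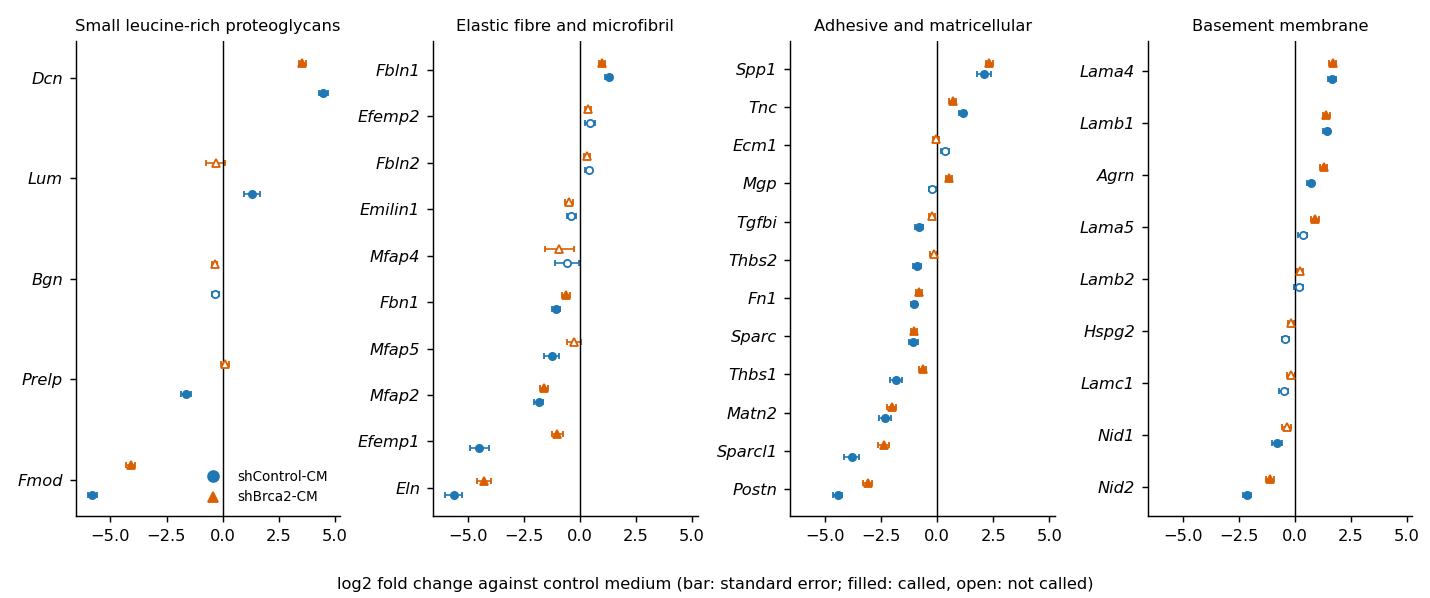
Log2 fold change against control medium (x axis) of the 36 matrix genes in 4 panels by role, with circles for shControl-CM, triangles for shBrca2-CM and bars of 1 standard error. Filled symbols were called; Dcn lies furthest to the right (4.50 and 3.56), and Fmod and Eln lie furthest to the left.

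Among the SLRPs, Fmod had the largest decrease, with log2 fold changes of -5.81 (SE 0.209, adjusted p = 1.32e-07) with shControl-CM and -4.10 (SE 0.20, adjusted p = 5.64e-26) with shBrca2-CM. Dcn had the largest increase of the 36 genes, 4.50 (SE 0.208, adjusted p = 8.34e-07) and 3.56 (SE 0.165, adjusted p = 5.7e-27). Fmod and Dcn were the SLRPs called with both organoid media. Prelp was lower with shControl-CM at -1.63 (SE 0.241, adjusted p = 0.00093) and was not called with shBrca2-CM, at 0.13 (adjusted p = 0.615). Lum was higher with shControl-CM at 1.33 (adjusted p = 0.0187) and was not called with shBrca2-CM, at -0.31 (adjusted p = 0.592). By mean level the SLRPs stood in the order Bgn, Fmod, Dcn, Prelp, Lum with control medium. With shBrca2-CM the order was Bgn, Dcn, Prelp, Fmod, Lum, and with shControl-CM it was Bgn, Dcn, Prelp, Lum, Fmod, where the values of Prelp and Lum overlapped.

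Within single libraries, which sets aside normalization between them, the ratio of Dcn to Bgn counts was 0.0115 and 0.0147 with control medium, 0.346 to 0.406 with shControl-CM and 0.165 to 0.215 with shBrca2-CM. The ratio of Fmod to Bgn counts was 0.0487 and 0.0497 with control medium, 0.000921 to 0.00122 with shControl-CM and 0.00178 to 0.00474 with shBrca2-CM. Both ratios separated the 3 groups without overlap, and in both shBrca2-CM lay between the other groups.

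Elastic fibre genes that were called against control medium were more often lower than higher, with 1 higher and 5 lower of 10 with shControl-CM and 1 higher and 4 lower with shBrca2-CM. Eln was at 78.2 and 72.7 CPM with control medium, 1.28, 2.90 and 0.679 CPM with shControl-CM, and 1.45, 4.98 and 4.44 CPM with shBrca2-CM. Every organoid medium value lay far below both control values. The shControl-CM domes were at the floor, and the control mean of elastin was 26.0 times their highest floor (fitted adjusted p = 5.43e-06). With shBrca2-CM the log2 fold change of elastin was -4.29 (SE 0.313, adjusted p = 6.91e-18). Efemp1 was also lower with shControl-CM, where its control mean was 13.7 times the highest floor (fitted adjusted p = 6.37e-05). With shBrca2-CM it had a log2 fold change of -1.02 (SE 0.245, adjusted p = 0.000595). Mfap2, a small glycoprotein of the microfibril, was at 255 and 199 CPM with control medium, 51.9, 62.8 and 77.4 CPM with shControl-CM, and 81.0, 68.4 and 74.6 CPM with shBrca2-CM. It was lower with both media, with log2 fold changes of -1.83 (SE 0.201, adjusted p = 0.000162) and -1.61 (SE 0.163, adjusted p = 2.35e-12). Fbn1 was lower with both media at -1.07 and -0.61, and Mfap5 was called with shControl-CM, -1.27, and not with shBrca2-CM, -0.28. Fibulin-1 (Fbln1), which binds fibronectin and elastic fibres, was the gene of this group that rose, at 1.28 and 0.97.

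Adhesive and matricellular genes fell more often than they rose, 8 against 2 of 12 with shControl-CM and 6 against 3 with shBrca2-CM. Postn had log2 fold changes of -4.45 (SE 0.215, adjusted p = 8.72e-07) with shControl-CM and -3.11 (SE 0.198, adjusted p = 1.52e-20) with shBrca2-CM. Sparcl1 was at 94.4 and 57.6 CPM with control medium, 7.69, 3.87 and 4.07 CPM with shControl-CM, and 18.8, 8.71 and 16.0 CPM with shBrca2-CM. Its log2 fold changes were -3.82 (SE 0.351, adjusted p = 5.59e-05) and -2.39 (SE 0.254, adjusted p = 9.94e-12). Matrilin-2 (Matn2), an adaptor that joins matrix filaments, was at 98.4 and 123 CPM with control medium, 28.8, 23.2 and 14.3 CPM with shControl-CM, and 27.5, 31.1 and 24.0 CPM with shBrca2-CM. Its log2 fold changes were -2.33 (SE 0.261, adjusted p = 0.000183) and -2.02 (SE 0.20, adjusted p = 9.83e-13). These 3 genes were lower in every organoid medium library than in either control library.

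Sparc, a collagen-binding matricellular protein, and Fn1 were among the most abundant of the genes that fell. Sparc had log2 fold changes of -1.07 with shControl-CM and -1.04 with shBrca2-CM, and Fn1 of -1.04 and -0.83. Thbs1 was lower with both, at -1.82 and -0.65, but DESeq2's likelihood ratio test did not call it with shBrca2-CM (adjusted p = 0.263). Tgfbi and Thbs2 were lower with shControl-CM, at -0.83 and -0.91, and were not called with shBrca2-CM, at -0.23 and -0.16. Wherever one of these 5 genes was called against control medium, it was lower. Spp1 rose with both organoid media, from 2047 and 1589.8 CPM with control medium, with log2 fold changes of 2.09 (SE 0.314, adjusted p = 0.00101) and 2.33 (SE 0.138, adjusted p = 6.24e-22). Tnc rose at 1.12 and 0.68, while Postn fell by more, at -4.45 and -3.11. The ratio of Tnc to Postn counts within a library, moved mostly by Postn, was 0.548 and 0.702 with control medium. It was 28.1 to 31.6 with shControl-CM and 5.27 to 11.9 with shBrca2-CM. Mgp rose with shBrca2-CM at 0.53 (adjusted p = 0.000496) and was not called with shControl-CM, at -0.23 (adjusted p = 0.31). Without shBrca2-CM dome 2 (0.46) or without control dome 2 (0.44) the rise of Mgp was too small for a call.

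The basement membrane genes were the group in which increases outnumbered decreases with both media, 3 higher and 2 lower of 9 with shControl-CM and 4 higher and 1 lower with shBrca2-CM. With shControl-CM this margin was not kept in every setting. Lamc1 was called as lower with total counts, with a replicate block and without shControl-CM dome 1 or 3. Hspg2 was called as lower with total counts. Lama4, a laminin α chain made by mesenchymal and vascular cells, was at 35.6 and 30.1 CPM with control medium, 98.0, 119.8 and 97.8 CPM with shControl-CM, and 103, 101 and 114 CPM with shBrca2-CM. It rose with both media, at 1.66 (SE 0.195, adjusted p = 0.000229) and 1.69 (SE 0.176, adjusted p = 5.84e-12). The laminin β1 chain (Lamb1) was at 132 and 121 CPM with control medium, 311, 375 and 338 CPM with shControl-CM, and 304, 341 and 359 CPM with shBrca2-CM. Its log2 fold changes were 1.42 (SE 0.163, adjusted p = 0.000204) and 1.41 (SE 0.148, adjusted p = 7.22e-12). The β2 chain (Lamb2) was not called with either, at 0.18 and 0.24, and the ratio of Lamb1 to Lamb2 counts was 0.405 and 0.474 with control medium, 0.820 to 1.32 with shControl-CM and 0.977 to 0.995 with shBrca2-CM. Of the β chains, β1 but not β2 was thus called. The γ1 chain (Lamc1), shared by most laminins, was not called with either, at -0.49 and -0.16. With shControl-CM its adjusted p was 0.086 and it missed the size required, and it was called in the settings named above. Nid2 fell with both media, -2.13 (SE 0.180, adjusted p = 3.52e-05) and -1.09 (SE 0.172, adjusted p = 4.2e-07). Agrn rose with both, at 0.71 and 1.30; Lama5 was called as higher with shBrca2-CM, 0.89, and Nid1 as lower with shControl-CM, -0.79.

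**Figure D4:**
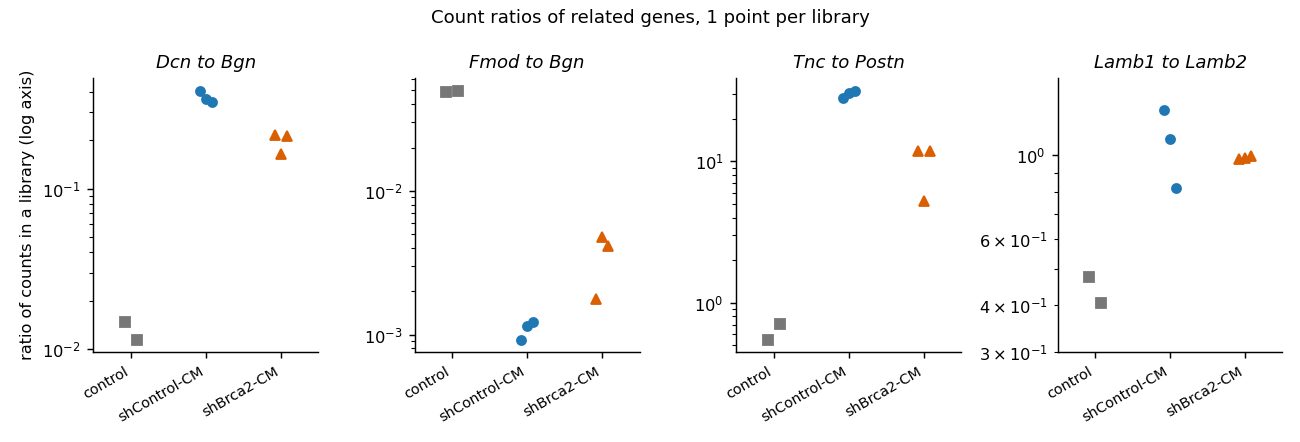
Ratio of the counts of 2 related genes in each library (log axes, 1 point per library) for Dcn to Bgn, Fmod to Bgn, Tnc to Postn and Lamb1 to Lamb2. Control medium (squares) stands apart from both organoid media in all 4 panels; shControl-CM (circles) and shBrca2-CM (triangles) are separate in the first 3 and overlap for Lamb1 to Lamb2.

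Other matrix genes outside the list of 39 were also measured. Of 28 further matrix glycoproteins tested between the organoid media, 5 were higher and 2 lower with shBrca2-CM (25% called, beside 3.13% of all genes), and the median log2 fold change was 0.42. Among those called, the largest changes were in Abi3bp, at 8.68, 27.4 and 15.1 CPM with shBrca2-CM and 0.641, 1.93 and 1.36 CPM with shControl-CM (all 3 under the floor of 3 counts), and in Ltbp1, Crispld2 and Svep1. Ltbp1, which stores latent TGF-β in the matrix, had a log2 fold change of 1.83 (SE 0.271, adjusted p = 0.00314), and Svep1 one of 1.53 (SE 0.323, adjusted p = 0.0283). Crispld2 was the one of these 4 that fell, by a log2 fold change of -1.42 (SE 0.152, adjusted p = 0.000356). Of 17 further proteoglycans, 1 was higher and 4 were lower (29.4% called), with a median of -0.04. Among those called, the largest changes were in lubricin (Prg4), -2.31 (adjusted p = 0.0366), the glypican Gpc4, -0.91 (adjusted p = 0.0175), and the syndecans Sdc1, -0.77 (adjusted p = 0.00538), and Sdc2, 0.73 (adjusted p = 0.0367). The glypican Gpc1 was also called as lower, -0.65 (adjusted p = 0.0794). Of the glypicans and syndecans called, Sdc2 was thus the only one that rose. Esm1, at 11.6, 9.96 and 3.55 CPM with shBrca2-CM and at 0 in all 3 shControl-CM libraries, and Fbln7, at 8.68, 6.22 and 4.44 CPM with shBrca2-CM and 1.28, 0.966 and 0.679 CPM with shControl-CM, had adjusted p-values of 0.0216 and 0.0802 but missed the mean count required for a call; both were named after their values were seen. Of 30 enzymes that make glycosaminoglycan chains, 1 was called (3.33%, near the share of all genes), the chondroitin sulfotransferase Chst11, -0.98 (adjusted p = 0.00733), from 50.6, 54.8 and 48.8 CPM with shBrca2-CM and 111, 93.7 and 105 CPM with shControl-CM. Against control medium, 6 of 33 further glycoproteins were higher and 11 lower with shControl-CM, and 11 were higher and 9 lower with shBrca2-CM. For the further proteoglycans these counts were 8 and 4 of 18 with shControl-CM and 6 and 5 with shBrca2-CM, and for the chain enzymes 7 and 5 of 31 and 8 and 5. The shares called were 51.5% and 60.6% for the glycoproteins, 66.7% and 61.1% for the proteoglycans, and 38.7% and 41.9% for the chain enzymes, beside 37.1% and 37.8% of all genes, so that the enzymes lay near the share of all genes.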

How the data were processed

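PSC RNA was measured in 8 MARS-seq libraries, grouped by their recorded treatment into 3 groups. The authors deposited raw read counts per gene, 1 column per dome; the submitters' processing notes name bcl2fastq, cutadapt, STAR 2.4.2a, HTSeq, DESeq2 and mm10. The rule that selected the 12160 genes, the annotation and the handling of molecular identifiers were not given in the sources used here. The table also holds 1 column, named as a further DMEM (control) library, that could be matched to no sample and was left out.

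For each comparison edgeR 4.0.16 was run in R 4.3.3 on the libraries of the groups compared (TMM, at least 10 counts over the libraries fitted, quasi-likelihood test, Benjamini-Hochberg adjustment over all genes tested), with the thresholds of the report. Scripts were tested on simulated counts. Alternatives were DESeq2 1.42.0 (likelihood ratio test or size factors), total counts, other filters and thresholds, 1 fit of all libraries, a replicate block, thinned libraries and each library left out. Libraries of a group, compared in 7 pairs, differed by more than sampling noise (chi-square per degree of freedom 1.65 to 8.35, highest for shControl-CM domes 1 and 3). Floors of 3 counts cover counting error only.

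The matrix genes, role groups and other lists were chosen with earlier results of these data known, so no set test was run. Full values are given for genes called between the organoid media and, per role, the 3 genes with the largest change against control medium; Spp1, Bgn and other genes were described by their level or group. Positions and promoters are RefSeq's (GRCm38.p6).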

Additional observations from a re-analysis of the deposited data

How the results depend on the processing

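Between the organoid media the number of matrix genes called depended on the setting. It was 12 as reported and 3 with an adjusted p under 0.05 and a log2 fold change over 1 in size; with 1 library left out it ranged from 4 to 14. Calls over all genes moved too, from 345 to 130 under the stricter thresholds and to 128 to 976 with 1 library left out. DESeq2's likelihood ratio test called 8 and lost Lum, Fmod, Postn and Thbs2, and libraries thinned to the smallest total gave 8 and lost Lum, Fmod, Postn and Nid2. Against control medium the number of genes called was within 1.5 times that reported in every alternative; with 1 library left out it was 22 to 27 with shControl-CM and 21 to 22 with shBrca2-CM. Where 1 library of control medium was left, it was assumed to vary like the other groups.

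The median log2 fold change of the matrix genes with shControl-CM was -0.65 when total counts replaced TMM, and -0.62 to -0.45 with 1 library left out; with shBrca2-CM it was -0.33 to -0.11 with 1 library left out. The median over all genes tested went, with total counts, from 0.03 to 0.14 between the organoid media and from -0.10 to -0.21 with shControl-CM against control medium.

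Same-numbered samples did not deviate together (correlations of -0.02, -0.01 and 0.09 between the organoid media), so the numbers were not taken as pairs. With a replicate block the organoid media differed in 10 matrix genes, without Postn and Thbs2; the median with shBrca2-CM against control medium was -0.13, and the log2 fold changes of Lamb2 with shControl-CM (-0.0287) and of Lum with shBrca2-CM (0.0239) against control medium changed sign. The cause was not tested.

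The genes that changed sign were never called under the settings concerned. With total counts, the log2 fold changes between the organoid media turned to 0.0984 for Bgn, 0.0517 for Fbln2, 0.0545 for Efemp2, 0.0368 for Emilin1 and 0.115 for Lamb1, which was 0.0118 with filterByExpr and 0.0375 with thinned libraries. With 1 library left out, the ranges between the organoid media were -0.0534 to 0.0166 for Bgn, -0.24 to 0.13 for Efemp2, -0.214 to 0.0664 for Emilin1, -0.0255 to 0.124 for Lama4, -0.0850 to 0.0581 for Lamb1, -0.15 to 0.26 for Lamb2, -1.03 to 0.24 for Mfap4, -0.0326 to 0.702 for Nid1, -0.17 to 0.17 for Sparc and -0.0308 to 0.432 for Spp1. Against control medium they were -0.0118 to 0.382 for Lamb2 with shControl-CM, and -0.161 to 0.0518 for Ecm1, -0.368 to 0.0404 for Lamc1, -0.748 to 0.0147 for Mfap5 and -0.0159 to 0.284 for Prelp with shBrca2-CM. Genes of few counts with organoid medium, such as Eln, Mfap4, Lum and Sparcl1, were limited by depth.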
